A study of Mus musculus with 6 samples.

Results

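Genes of the interstitial and fibrotic matrix were examined in RNA of kidney glomeruli, the filtering tufts of capillaries held by mesangial cells and covered by podocytes. The 33 genes are a fixed list of symbols, chosen with earlier results of these data known. Counts of members set beside shares of all genes are therefore descriptions and not tests. Each symbol was matched by NCBI Gene identifier to 1 row among the 27179 features of the table. Of the 33, 29 had a mean normalised count of at least 10 over the 6 libraries and entered the test with 13946 genes in all. All 29 had a mean of at least 10 in both groups, so that none was kept by 1 group alone. The KO libraries (KO-1 to KO-3) came from 3 Parva-fl/fl*hNPHS2Cre mice, in which both Parva alleles are floxed and Cre is driven by the human podocin promoter, which is active in podocytes. The WT libraries (WT-1 to WT-3) came from 3 Parva-fl/fl mice without Cre, so the floxed alleles are common to both groups. All 6 mice were males of 9 weeks on a mixed C57BL/6 background, and the glomeruli were collected after perfusion with magnetic beads. The labels speak of mild proteinuria without assigning it to a genotype. Parva encodes alpha-parvin, which links integrin-linked kinase to actin at cell-matrix adhesions. The promoter directs Cre to podocytes, whereas the libraries hold RNA of whole glomeruli.

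As background, interstitial matrix is the collagen and glycoprotein scaffold of connective tissue, distinct from the basement membrane on which podocytes and endothelial cells sit. Fibrillar collagens (types I, III and V) form cables, lysyl oxidases cross-link collagen and elastin, and fibulins, fibrillins and their partners build elastic fibres. In the kidney these genes are made mainly by fibroblasts, mural cells and mesangial cells, and their products accumulate in scarred glomeruli.

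Promoter sequence is shown for members whose values the account below turns on. Postn, Col6a3 and Bgn were lower in KO and passed the test, Col3a1 and Col5a3 were far higher in KO-3 than in the other KO libraries, and Col1a2 was far more abundant than its partner chain. Each line holds the 250 bases before a RefSeq transcription start (GRCm38.p6, equal to mm10), 5′ to 3′ on the gene's strand. Capitals mark matches on either strand to the TATA box TATAAA, the CCAAT box, the GC box GGGCGG or the AP-1 site TGANTCA. Matches to different motifs did not overlap in these 6 windows, and adjacent GC boxes can share bases.
Postn, chr3:54360857-54361106, plus strand, the inner of its 2 listed starts: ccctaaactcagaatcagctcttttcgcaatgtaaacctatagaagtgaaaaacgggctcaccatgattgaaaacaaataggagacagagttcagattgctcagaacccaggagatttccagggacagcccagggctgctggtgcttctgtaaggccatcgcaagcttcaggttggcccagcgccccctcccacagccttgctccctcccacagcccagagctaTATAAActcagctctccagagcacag
Col6a3, chr1:90843972-90844221, minus strand: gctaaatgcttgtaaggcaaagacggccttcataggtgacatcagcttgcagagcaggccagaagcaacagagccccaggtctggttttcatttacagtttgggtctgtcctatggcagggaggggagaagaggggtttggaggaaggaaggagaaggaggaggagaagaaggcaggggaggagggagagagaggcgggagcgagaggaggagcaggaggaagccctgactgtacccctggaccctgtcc
Bgn, chrX:73483351-73483600, plus strand: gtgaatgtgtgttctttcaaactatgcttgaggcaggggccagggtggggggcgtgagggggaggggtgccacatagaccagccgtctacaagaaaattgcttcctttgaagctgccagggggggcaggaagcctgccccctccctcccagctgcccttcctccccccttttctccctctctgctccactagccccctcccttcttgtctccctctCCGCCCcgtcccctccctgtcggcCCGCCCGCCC
Col3a1, chr1:45311288-45311537, plus strand: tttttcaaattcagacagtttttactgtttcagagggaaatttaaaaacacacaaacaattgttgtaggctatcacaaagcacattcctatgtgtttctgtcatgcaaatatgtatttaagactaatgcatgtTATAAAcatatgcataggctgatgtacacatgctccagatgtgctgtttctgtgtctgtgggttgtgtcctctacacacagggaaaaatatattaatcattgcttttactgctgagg
Col5a3, chr9:20815068-20815317, minus strand: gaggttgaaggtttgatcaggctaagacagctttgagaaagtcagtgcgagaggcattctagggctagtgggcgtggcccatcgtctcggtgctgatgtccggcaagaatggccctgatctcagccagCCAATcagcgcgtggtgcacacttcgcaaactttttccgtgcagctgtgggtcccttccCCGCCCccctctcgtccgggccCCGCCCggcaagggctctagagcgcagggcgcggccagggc
Col1a2, chr6:4505368-4505617, plus strand: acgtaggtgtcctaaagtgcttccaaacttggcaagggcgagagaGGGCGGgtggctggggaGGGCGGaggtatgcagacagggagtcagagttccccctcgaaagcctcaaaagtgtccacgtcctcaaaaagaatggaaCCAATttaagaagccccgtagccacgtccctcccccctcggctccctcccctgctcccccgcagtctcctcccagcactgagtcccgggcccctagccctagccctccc
Postn had a TATA box 26 bases before its inner start, and Col3a1 had 1 at 117 bases. The window before the outer Postn start (chr3:54359017-54359266), not shown, held none of the 4 motifs. Bgn, Col5a3 and Col1a2 held GC boxes, and Col6a3 held none of the 4 motifs. The table covers 19 of the 33 genes in 28 windows. A GC box stood in 20 of these 28 windows (14 genes) and in 32.7% of all 32851 windows. CCAAT stood in 5 of the 28 and in 33.8% of all windows, a TATA box in 4 (3 genes) and in 12.4%, and an AP-1 site in 1 (Col6a1) and in 6.75%. These matches describe letters and not bound sites.

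Whole reads recovered from the values numbered 11886828 to 20552984 per library. Parva stood at 6585, 7520 and 7890 normalised counts in WT and at 2288, 2338 and 1942 in KO, lower in each KO library than in any WT library. Podocyte, endothelial and mesangial markers were present in every library, with none of their genes below 3 reads throughout. Proximal tubule markers rose in 13 of 13 genes under both scalings used below, and their summed normalised count was 54178 to 123291 in WT and 167382 to 239854 in KO. All 10 distal tubule and collecting duct markers had a positive log2 fold change in the deposited scaling, and 3 of them rose. In the deposited scaling, mesangial markers fell in 8 of 9 genes, with a sum of 32287 to 41304 in WT and 20956 to 25092 in KO, endothelial markers in 12 of 15 and podocyte markers in 6 of 12. Of all genes tested in that scaling, 8.58% fell and 13.5% rose. Parietal epithelial markers rose in 4 of 5 genes, with a sum of 671 to 1392 in WT and 1994 to 2712 in KO. Among WT libraries this sum was highest in WT-1, as was that of the proximal tubule markers. Whether the parietal list changed apart from the tubule lists was not tested. KO-3 stood apart in macrophage and leukocyte markers, whose sum was 5407 there and 1345 to 2099 in WT. The part of these cell markers in the results below was not tested. In these libraries of whole glomeruli, fewer cells of a type, less RNA per cell and a larger share of tubule RNA cannot be told apart.

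Of the 29 matrix genes tested, 5 fell in KO, none rose and 24 did not pass the test (limma on log2(normalised count + 1), Benjamini-Hochberg adjusted p under 0.05 over all genes tested). Those that fell were Postn, Ltbp4, Col6a3, Efemp2 and Bgn. Among all genes tested, 8.58% fell and 13.5% rose. The median log2 fold change was -0.37 over the 29 genes and -0.006 over all genes tested, and 20 of the 29 had a negative value. At an unadjusted p under 0.05 the count was 9 lower and 0 higher, against 17.8% and 22.1% of all genes tested. edgeR called the same 5 genes on the recovered reads and no other member, against 8.25% of all genes lower and 12.1% higher. DESeq2 also called Eln and Emilin1 lower and Col5a3 higher, against 10.5% of all genes lower and 16.8% higher. Every KO library lay below every WT library in 9 of the 29, against 21.9% of all genes tested. The 9 are the 5 genes that fell plus Thbs1, Eln, Fbn1 and Emilin1. In none of the 29 did every KO library lie above every WT library, against 23.2% of all genes tested. With 3 libraries against 3, the smallest exact two-sided permutation p for a single gene is 0.1. The limma p-values come instead from a parametric t test that shares variance information over all genes.
The count of 5 depended on single libraries: it was 7 without WT-1 and 4 without KO-1. The 4 were Postn, Ltbp4, Col6a3 and Thbs1, so that Bgn and Efemp2 dropped out and Thbs1 entered. Without WT-2, WT-3, KO-2 or KO-3 the count was 0. In those fits limma called at most 4 of all genes, with 3940 to 4920 at an unadjusted p under 0.05. The count was also 0 with a replicate block, without the variance trend or with tubule markers as a covariate. When libraries were instead scaled to equal mesangial and endothelial markers, which moved the median of all genes from -0.006 to 0.65, the median of the 29 members was 0.29. In that scaling Postn was the 1 member still lower, at -0.86 (limma adjusted p = 0.0378), Bgn and Efemp2 were at 0.22 and 0.11, and 4 members (Loxl2, Col8a1, Tnc and Col12a1) were called higher, against 0.308% of all genes lower and 64.1% higher.

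**Figure D1:**
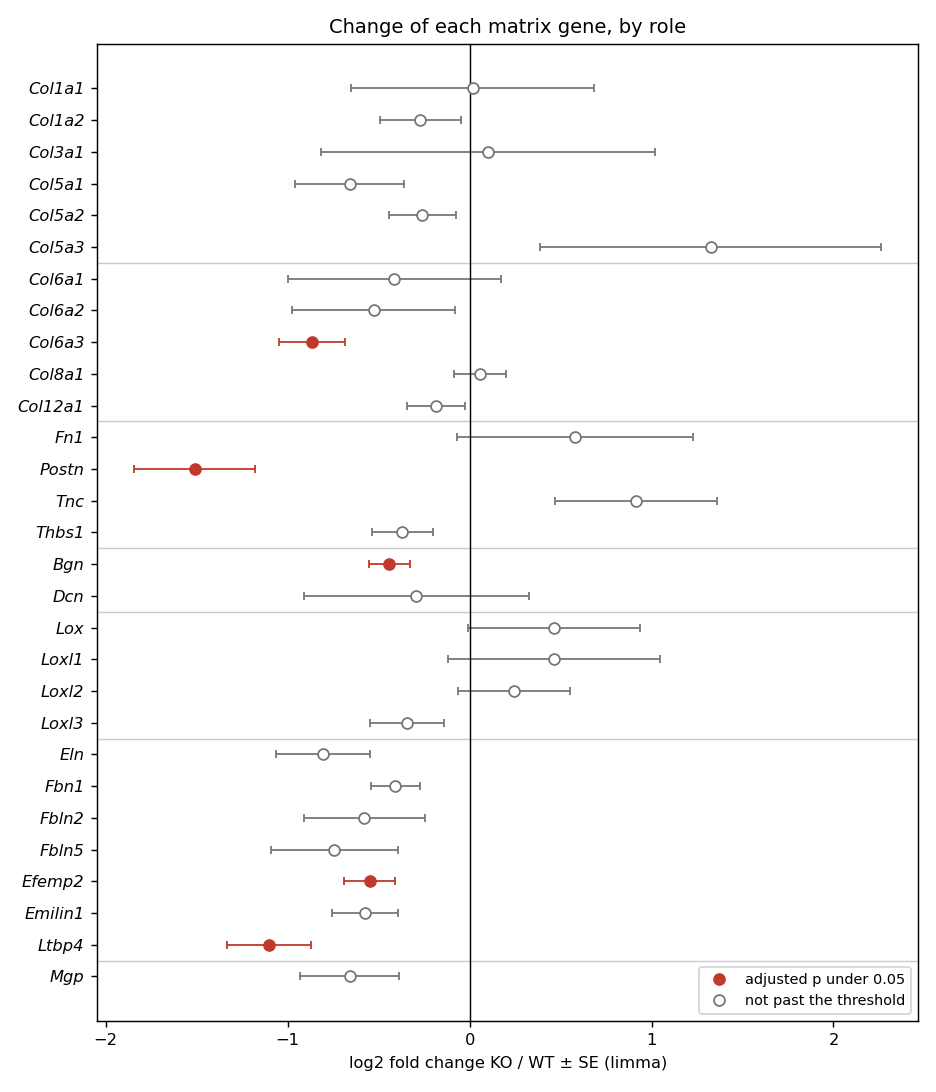
log2 fold change of KO against WT (x axis, limma on log2(normalised count + 1)) with its SE for each of the 29 matrix genes tested, grouped by role from the fibrillar collagens at the top to Mgp at the bottom. Filled red points are the 5 genes with an adjusted p under 0.05, all between -1.51 and -0.44, though with mesangial and endothelial markers set equal Bgn and Efemp2 lay at 0.22 and 0.11; open points did not pass, and the widest bars belong to Col5a3 and Col3a1.

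Among the adhesive and matricellular proteins, Postn showed the largest difference of the 5. Periostin binds collagen and integrins and is abundant in remodelling tissue. The gene (NCBI Gene 50706, chromosome 3, 54359267 to 54391041, GRCm38) had normalised counts of 108, 138 and 138 across WT (always in the order of the library numbers), against 30.1, 37.9 and 73.7 across KO. All KO libraries lay below the lowest WT library, and KO-3 was the highest of the KO libraries. The mean was 128 ± 17.5 in WT and fell to 47.2 ± 23.2 (SD, n = 3), a log2 difference of -1.51 ± 0.33 (SE, adjusted p = 0.0297 by limma). Thrombospondin 1 (Thbs1), a glycoprotein that activates latent TGF-beta, had counts of 1068, 1077 and 1069 across WT, against 1052, 836 and 649 across KO. The WT libraries were nearly equal and KO-1 lay just below them, and the log2 fold change of -0.37 did not pass (SE 0.17, limma adjusted p = 0.141). Without KO-1, Thbs1 was at -0.54 and passed (limma adjusted p = 0.0454).

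Fibronectin (Fn1) and tenascin C (Tnc) went differently. Fibronectin is an adhesive glycoprotein on which collagen fibrils assemble. Fn1 had counts of 78.2, 62.4 and 109 across WT, against 77.1, 60.6 and 381 across KO. KO-1 and KO-2 lay close to WT-1 and WT-2, and KO-3 alone was high, at 4.59 times the WT mean. Its log2 difference of 0.58 ± 0.65 (SE, adjusted p = 0.538 by limma) was -0.24 without KO-3, and 1.04 in edgeR and 1.06 in DESeq2 with it, neither past the test. Tnc, an anti-adhesive matricellular protein, had counts of 312, 130 and 288 across WT, against 610, 236 and 543 across KO. KO-1 and KO-3 lay above every WT library and KO-2 lay inside the WT range, and the log2 fold change was 0.91 (SE 0.45, limma adjusted p = 0.168).

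None of the 6 fibrillar collagen genes passed the test. Type I collagen, the main collagen of scar tissue, is built from the chains of Col1a1 and Col1a2. Col1a1 (NCBI Gene 12842) had counts of 21.7, 31.7 and 32.1 across WT, against 13.3, 18.4 and 90.7 across KO, from 15 to 80 reads per library. Col3a1 (NCBI Gene 12825), the type III chain found beside it, had counts of 11.9, 43.5 and 63.4 across WT, against 16.8, 17.3 and 139 across KO. KO-3 was above all WT libraries for both genes, whereas KO-1 and KO-2 were below all WT libraries for Col1a1 and between WT-1 and WT-2 for Col3a1. The log2 fold changes were 0.02 (SE 0.67) for Col1a1 and 0.10 (SE 0.92) for Col3a1 with all libraries, and -0.80 and -0.88 without KO-3 (limma adjusted p = 0.147 and 0.393). On the recovered reads edgeR and DESeq2 gave 0.49 and 0.52 for Col1a1 and 0.51 and 0.55 for Col3a1, none of which passed, and upper quartile scaling put Col1a1 at -0.042.

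Col1a2 (NCBI Gene 12843) had counts of 2852, 3618 and 3453 across WT, against 2817, 1961 and 3660 across KO, with a log2 difference of -0.27 ± 0.22 (SE, adjusted p = 0.395 by limma). KO-3 was again the highest library, here by a small margin over WT-2. Type V chains nucleate and limit the width of collagen fibrils. Col5a1 had 112, 125 and 128 across WT, against 70.9, 52.0 and 121 across KO, so that KO-1 and KO-2 were below every WT library and KO-3 was inside the WT range. Col5a3 (NCBI Gene 53867) had 14.1, 18.8 and 13.2 across WT, against 21.3, 13.0 and 213 across KO. KO-3 held 12.4 times the mean of the other KO libraries, the largest such ratio among the 29 genes, and the log2 difference of 1.32 ± 0.94 (SE, adjusted p = 0.326 by limma) was 0.12 without KO-3. It was 2.41 in edgeR (adjusted p = 0.129) and 2.43 in DESeq2 (adjusted p = 0.0276), both with KO-3. Col5a2, a type V chain whose gene lies 24.6 kb from Col3a1 on chromosome 1 in the opposite orientation, had 464, 366 and 561 across WT, against 439, 395 and 320 across KO. It was lowest in KO-3, where Col3a1 was highest.

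Of the other collagens, Col6a3 fell, and it was at -0.21 and did not pass with mesangial and endothelial markers set equal. Type VI collagen forms beaded microfilaments around cells from 3 different chains. Col6a3 (NCBI Gene 12835, chromosome 1, 90766860 to 90844001) had counts of 363, 513 and 377 across WT, against 185, 251 and 247 across KO. The KO libraries lay close together and below every WT library. The mean was 418 ± 82.7 in WT and fell to 228 ± 37.0 (SD, n = 3), a log2 difference of -0.87 ± 0.18 (SE, adjusted p = 0.0287 by limma). The partner chains Col6a1 and Col6a2, neighbours 85.2 kb apart on chromosome 10, did not follow it in KO-3. Col6a1 had 48.9, 39.6 and 69.1 across WT, against 25.7, 20.6 and 103 across KO. Col6a2 had 35.8, 33.6 and 65.8 across WT, against 21.3, 21.7 and 55.6 across KO. Both were below every WT library in KO-1 and KO-2 and highest of KO in KO-3, and neither passed (log2 difference -0.41 ± 0.58 and -0.53 ± 0.45 SE, limma adjusted p = 0.627 and 0.413). Col8a1, a network-forming collagen of vessels, averaged 342 ± 47.9 among WT and 355 ± 40.5 among KO libraries, and Col12a1, a fibril-associated collagen, averaged 326 ± 38.4 and 288 ± 54.1 (SD, n = 3). Their groups overlapped (limma adjusted p = 0.788 and 0.419).

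Bgn, the member with the highest level per kilobase in WT, fell, though it was at 0.22 with mesangial and endothelial markers set equal. Biglycan is a small leucine-rich proteoglycan that binds collagen and TGF-beta. Bgn (NCBI Gene 12111, chromosome X, 73483601 to 73495936) had counts of 4314, 5191 and 5381 across WT, against 3703, 3475 and 3748 across KO. The KO libraries agreed closely and lay below WT-1, the lowest WT library. The mean was 4962 ± 569 in WT and fell to 3642 ± 147 (SD, n = 3), a log2 difference of -0.44 ± 0.11 (SE, adjusted p = 0.0366 by limma). Decorin (Dcn), its close relative, had counts of 34.8, 65.3 and 61.7 across WT, against 24.8, 24.9 and 120.2 across KO. KO-1 and KO-2 were below every WT library and KO-3 was above all of them, with a log2 difference of -0.29 ± 0.62 (SE, adjusted p = 0.752 by limma) that was 0.051 in edgeR and -1.04 without KO-3. Lumican (Lum), which lies 47.3 kb from Dcn on chromosome 10, had 0 to 2 reads in each library, where a count of 0 allows up to 3 reads. Versican (Vcan) had 3 to 7 reads. Both were too low to test.

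The elastic fibre genes had a negative log2 fold change in all 7 tested, 2 of which fell, though with mesangial and endothelial markers set equal 3 of the 7 were negative and none fell. Ltbp4 and Efemp2 both act in elastic fibre assembly, the first as a latent TGF-beta binding protein and the second as fibulin 4, which brings lysyl oxidase to elastin. Ltbp4 (NCBI Gene 108075, chromosome 7, 27305140 to 27339720) had counts of 1619, 2281 and 1138 across WT, against 804, 708 and 745 across KO. The WT libraries were spread widely and the KO libraries lay within 1.13 times of each other, with no overlap. The mean was 1679 ± 574 in WT and fell to 752 ± 48.1 (SD, n = 3), a log2 difference of -1.10 ± 0.23 (SE, adjusted p = 0.0286 by limma). Efemp2 (NCBI Gene 58859, chromosome 19, 5473946 to 5482520) had counts of 532, 716 and 635 across WT, against 440, 374 and 468 across KO. The groups did not overlap, and the mean was 627 ± 91.8 in WT and fell to 427 ± 48.7 (SD, n = 3), a log2 difference of -0.55 ± 0.14 (SE, adjusted p = 0.0365 by limma).

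The other 5 elastic fibre genes tested did not pass. Elastin (Eln), the rubber-like core protein, had counts of 541, 602 and 581 across WT, against 271, 251 and 517 across KO. All KO libraries were below WT, KO-1 and KO-2 by a wide margin and KO-3 by a narrow one (log2 difference -0.81 ± 0.26 SE, adjusted p = 0.0622 by limma). Fbn1, which encodes the microfibril protein fibrillin 1, had 318, 377 and 434 across WT, against 299, 274 and 271 across KO (log2 difference -0.41 ± 0.13 SE, adjusted p = 0.0663 by limma). Emilin1, a glycoprotein between elastin and microfibrils, had 2039, 2354 and 2421 across WT, against 1584, 1155 and 1919 across KO (log2 difference -0.58 ± 0.18 SE, adjusted p = 0.0602 by limma). For these 3 genes the groups did not overlap, yet the adjusted p stayed above 0.05.
Fibulin 5 (Fbln5), which tethers elastin to integrins, had 471, 441 and 438 across WT, against 221, 175 and 498 across KO. Fibulin 2 (Fbln2) had 164, 249 and 146 across WT, against 100.1, 89.9 and 197 across KO. In both, KO-1 and KO-2 were below every WT library while KO-3 was within or above the WT range (log2 difference -0.74 ± 0.35 and -0.58 ± 0.33 SE, limma adjusted p = 0.155 and 0.234). Fbln1 had 1 to 13 reads per library and Mfap5 at most 1, and neither was tested. Mgp, matrix Gla protein, an inhibitor of vascular calcification, had 536, 721 and 511 across WT, against 377, 250.1 and 530 across KO. KO-3 lay in the WT range and the others below it, and the log2 fold change was -0.66 (SE 0.27, limma adjusted p = 0.115).

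The lysyl oxidases gave no call in either direction. Loxl2, the highest of them per kilobase, had counts of 2210, 2974 and 3303 across WT, against 3546, 2068 and 4900 across KO. KO-1 and KO-3 were above every WT library and KO-2 below them (log2 difference 0.24 ± 0.31 SE, adjusted p = 0.589 by limma). Loxl1 had 44.5, 50.5 and 99.6 across WT, against 85.1, 36.8 and 189 across KO, and Lox had 27.2, 21.8 and 20.6 across WT, against 57.6, 15.2 and 37.4 across KO. The log2 difference was 0.46 for both, with SEs of 0.58 and 0.47 (limma adjusted p = 0.585 and 0.497). Each of these 3 genes was lowest in KO-2 of all 6 libraries. Loxl3 had 241, 330 and 379 across WT, against 260, 200.3 and 283 across KO (limma adjusted p = 0.245). The span of Loxl3, introns included, overlaps that of the protein-coding gene Htra2 (548 to 712 normalised counts) over 1301 bases. Loxl2 overlaps a long noncoding RNA (Gm27177), and Postn, Ltbp4, Eln and Col5a1 each overlap another, none of them among the measured features. Reads of these members may include reads of their partners. Noncoding RNAs that overlap Tnc and Vcan were measured, at 0 to 0.886 and 0 to 1.98 normalised counts. Tnc itself was at 130 to 610.

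**Figure D2:**
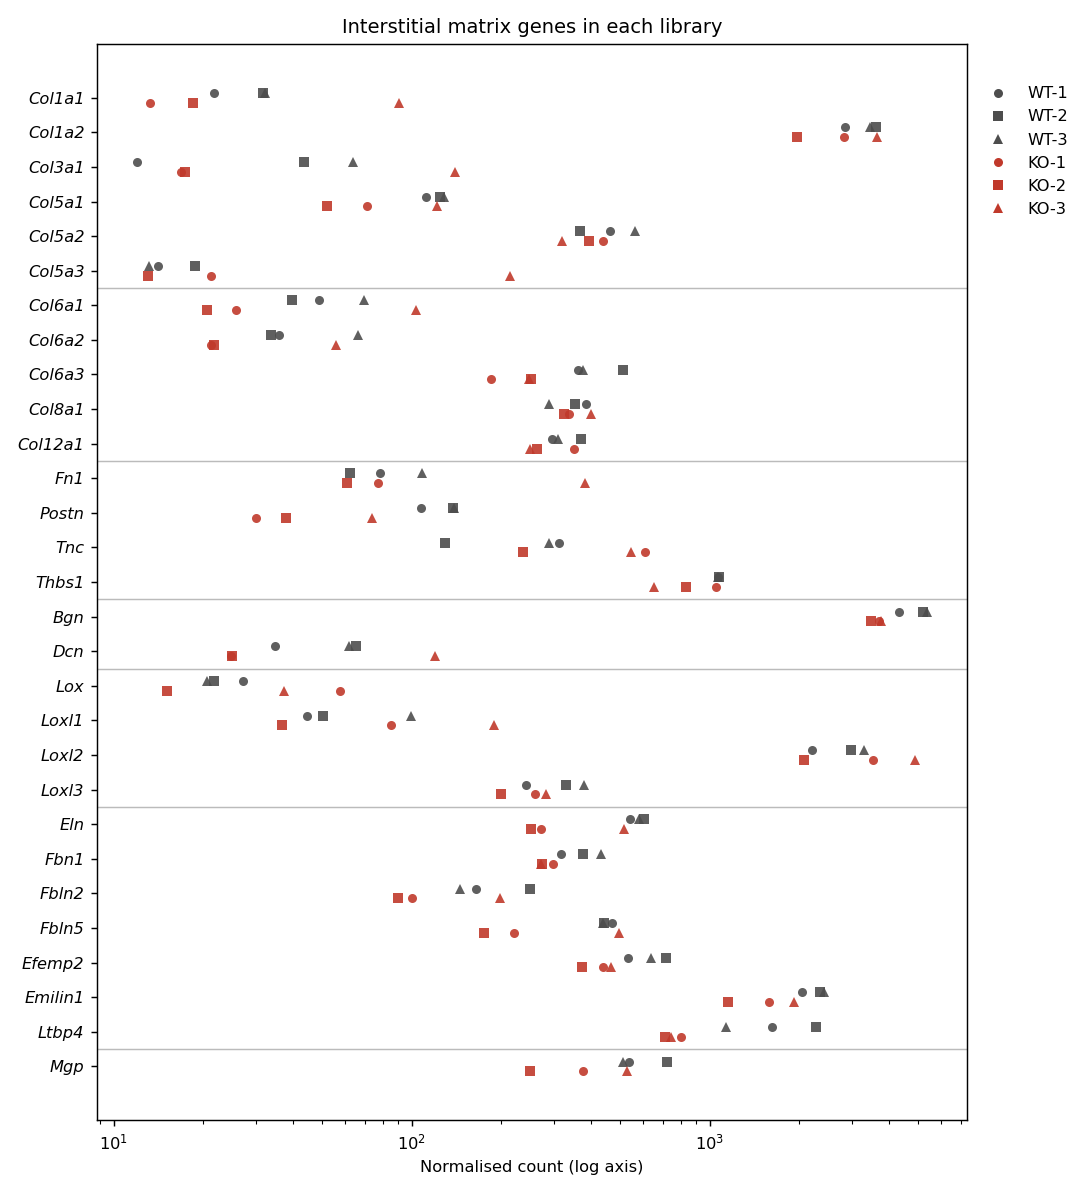
Normalised count (x axis, log scale) of each of the 29 matrix genes tested in the 6 libraries, WT in grey and KO in red, with circles, squares and triangles for libraries 1, 2 and 3 and grey lines between roles. The red triangle of KO-3 stands far to the right of the other KO libraries for Col1a1 (90.7 against 13.3 and 18.4), Col3a1, Col5a3, Fn1 and Dcn, and beside them for Bgn and Col6a3.

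The KO libraries disagreed among themselves for most of these genes. In 17 of the 29 genes the highest KO library held at least 2 times the lowest, against 10.2% of all genes tested. The highest was KO-3 in 15 of the 17 and KO-1 in the other 2, Tnc and Lox. KO-3 was the highest of all 6 libraries in 11 of the 29, against 18.2% of all genes tested. The median ratio of KO-3 to the mean of KO-1 and KO-2 was 1.69 over the 29 genes and 0.989 over all genes tested. In WT the same spread of at least 2 times was present in 4 of the 29 genes and in 13.8% of all genes. Counting error adds to the spread of low genes such as Col1a1.

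Set against WT, the KO libraries fell into 2 patterns for these genes. Over all genes with enough reads, KO-2 and KO-3 were the closest KO pair. Their reads differed by a chi-square per degree of freedom of 23.5, against 331 for KO-1 with KO-2 and 316 for KO-1 with KO-3. KO-1 and KO-2 were both below every WT library in 18 of the 29 genes, against 27.2% of all genes tested. In 9 of the 18, KO-3 was below WT too. In the other 9 it was not: it lay above every WT library for Col1a1, Col1a2, Col6a1, Dcn and Fbln5 and inside the WT range for Col5a1, Col6a2, Fbln2 and Mgp. Without KO-3, 26 of the 29 log2 fold changes were negative, with a median of -0.62 against -0.002 over all genes tested. No member passed the test in that fit, which called 3 of all genes (4920 at an unadjusted p under 0.05). These values use the deposited scaling, in which mesangial and endothelial markers were also lower in every KO library. Mean log2 levels of mesangial markers were 11.1 and 10.9 in KO-1 and KO-2, against 11.6 to 11.9 in WT. For endothelial markers they were 11.1 and 10.9, against 11.6 to 11.8 in WT. The part of these cell types in the patterns was not tested.
Grouping the libraries in this way followed their values and not a label, and no p-value is attached to it.

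**Figure D3:**
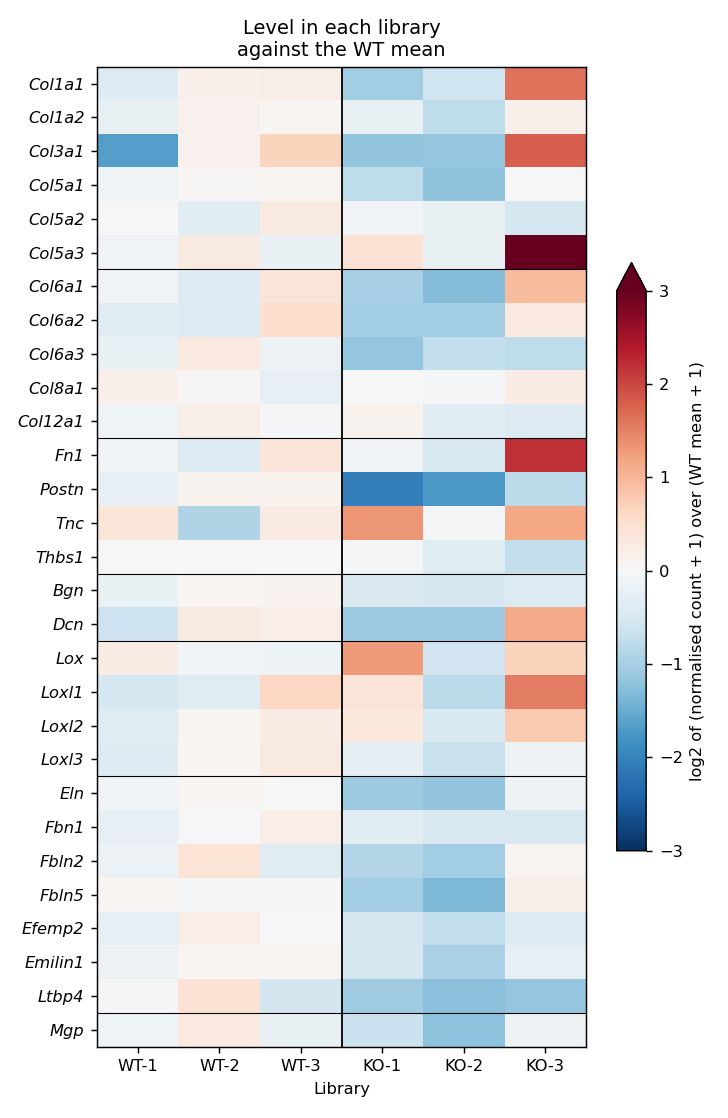
Heat map of the log2 ratio of (normalised count + 1) to (WT mean + 1) for the 29 matrix genes tested (rows, by role) in each library (columns, WT left of the line). KO-1 and KO-2 are blue for most collagens, Dcn and the elastic fibre genes. KO-3 is red for Col1a1, Col3a1, Col5a3, Col6a1, Fn1, Dcn, Loxl1 and Tnc, and less so for Loxl2 and Lox. Tnc and Lox are red in KO-1 too. The colour scale ends at 3, and Col5a3 in KO-3 lies beyond it at 13.9 times the WT mean.

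Cell markers were read in the same libraries. The mean log2 level of the 29 genes was 7.82, 8.04 and 8.12 in WT and 7.59, 7.25 and 8.38 in KO. That of 15 macrophage and leukocyte markers was 4.92, 4.93 and 5.55 in WT and 5.23, 4.69 and 6.63 in KO, so both lists were highest in KO-3 and lowest in KO-2. The same order held for the smooth muscle and myofibroblast markers, at 6.76, 6.68 and 6.88 in WT and 6.55, 6.53 and 7.03 in KO, and for the collagen biosynthesis, other interstitial matrix and receptor lists described further on. KO-3 was the highest of all libraries in 11 of the 12 macrophage and leukocyte markers tested, none of which passed the test between genotypes. The complement gene C1qa, a macrophage product, had counts of 10.9, 29.7 and 25.5 across WT, against 11.5, 16.2 and 196 across KO. Mesangial markers were not highest in KO-3: their mean log2 level was 11.6, 11.9 and 11.9 in WT and 11.1, 10.9 and 11.1 in KO. Pdgfrb, the PDGF receptor of mesangial cells and fibroblasts, was at 3357, 2983 and 3003 in the KO libraries.
Of 9 genes listed as interstitial fibroblast markers, 4 were measured at a mean of at least 10. Of these, 3 (Pdgfra, Pi16 and Cygb) fell, against 8.58% of all genes tested. Whether these 3 genes report on fibroblasts in glomerular RNA was not tested. Pi16 was at 5167 to 5971 in WT and at 2684 to 2923 in KO. Cygb was at 413, 352 and 1000.2 in KO. With mesangial and endothelial markers set equal, these 3 genes stayed negative and Pdgfra alone fell. C7 and Clec3b had at most 2 reads in any library. Among smooth muscle and myofibroblast markers, Tagln, an actin-binding protein of contractile cells, rose (1.56 ± 0.35 log2, SE, limma adjusted p = 0.0304), from 629, 551 and 650.2 in WT to 1254, 1359 and 3386 in KO, again highest in KO-3. Myh11 and Des fell, though they were at -0.016 and 0.049 with mesangial and endothelial markers set equal, and Acta2 did not pass. The part of these cell types in the matrix values of KO-3 was not tested.

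**Figure D4:**
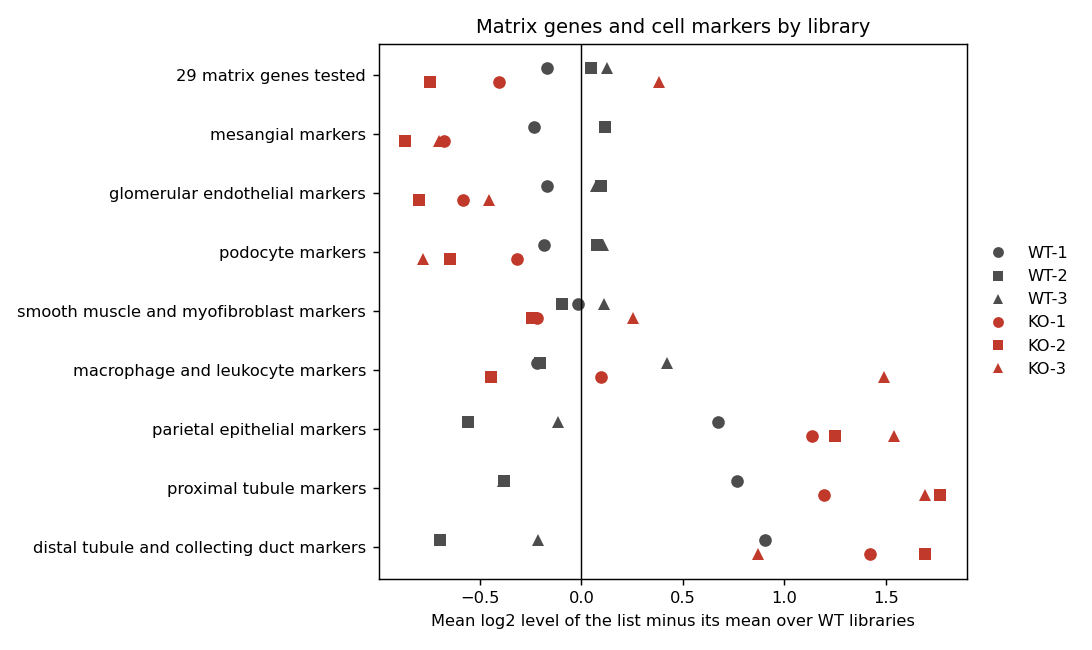
Mean log2 level of the 29 matrix genes tested and of 8 lists of cell markers in each library, minus the mean of the WT libraries (x axis), WT in grey and KO in red. The matrix genes, the macrophage and leukocyte markers and the smooth muscle and myofibroblast markers have KO-3 at the right and KO-2 at the left, mesangial and endothelial markers have all KO libraries at the left, and tubule markers have most KO libraries at the right.

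Levels of different genes were compared per kilobase of exon (merged exons of GENCODE M21). In WT, Bgn was highest at 814 normalised counts per kilobase, followed by Loxl2 at 523, Mgp at 497, Emilin1 at 460.1, Col1a2 at 266 and Ltbp4 at 260. Fn1, Col1a1 and Col3a1, genes often used as signs of fibrosis, were among the lower members, at 7.11, 4.34 and 4.04. The chains of 1 collagen were not matched in level. Col1a2 exceeded Col1a1 per kilobase by 69.3, 60.3 and 56.8 times in WT and by 112, 56.3 and 21.3 times in KO. KO-3 had the lowest of these ratios. Col6a3 exceeded Col6a1 by 2.72, 4.74 and 2.0 times in WT and by 2.64 and 4.47 times in KO-1 and KO-2, and was at 0.877 times Col6a1 in KO-3. Col5a2 exceeded its chromosomal neighbour Col3a1 by 8.61 to 39.7 times in WT and by 26.7, 23.3 and 2.35 times in KO. Exon lengths are those of the annotation and not of the isoforms present, so the ratios depend on it.

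**Figure D5:**
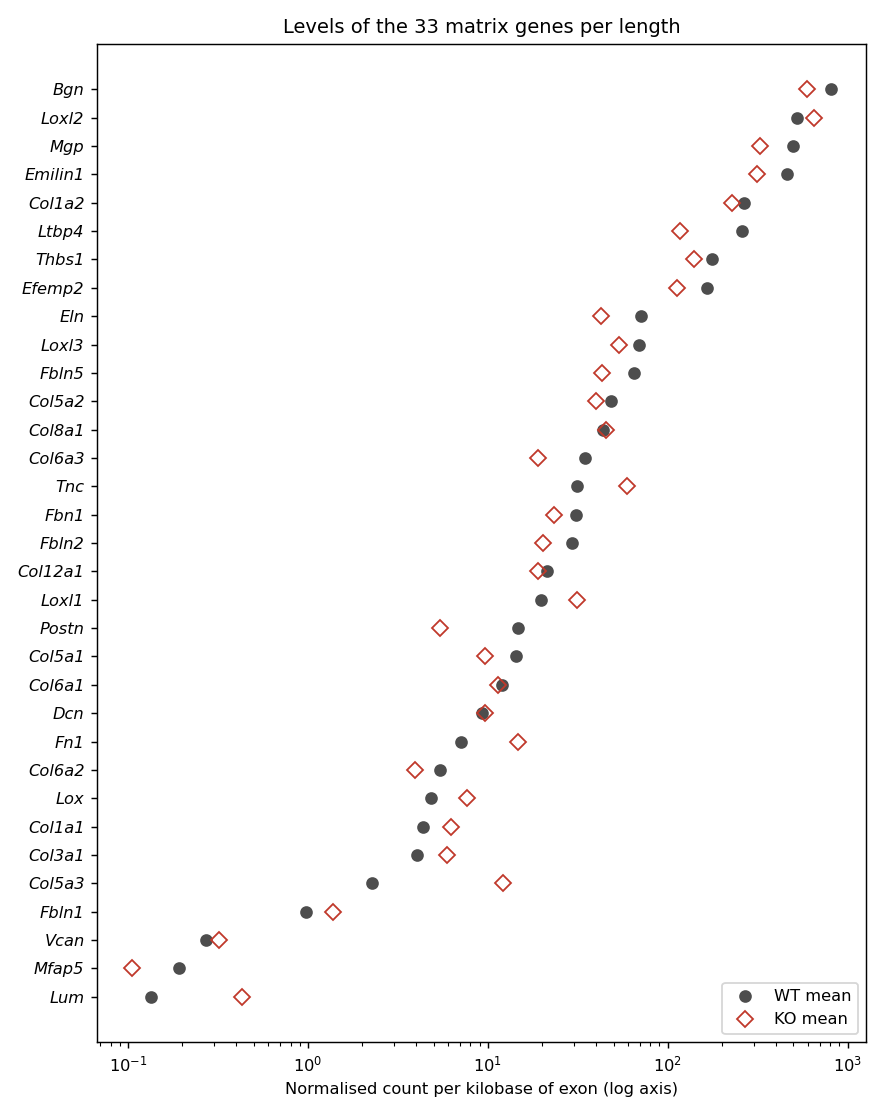
Mean normalised count per kilobase of merged exon (x axis, log scale) of all 33 matrix genes, ordered by the WT mean, with WT as grey points and KO as red diamonds. Bgn leads in WT at 814 and Col1a1 and Col3a1 lie near 4, far below Col1a2 at 266; Lum, Mfap5, Vcan and Fbln1 form the low end.

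Other genes of the same pathways gave mixed counts. Of 21 collagen biosynthesis genes tested, 3 fell and 1 rose, against 8.58% and 13.5% of all genes tested. Fkbp10, a collagen chaperone, P3h3, a prolyl hydroxylase family member, and Bmp1, the procollagen C-proteinase, fell by 0.67, 0.58 and 0.62 on the log2 scale (limma adjusted p = 0.0286, 0.0286 and 0.0317), but lay at -0.007, 0.082 and 0.043 with mesangial and endothelial markers set equal. Plod2, the lysyl hydroxylase of collagen telopeptides, rose, with counts of 2968, 3413 and 2960 across WT, against 4896, 4349 and 5224 across KO (log2 difference 0.63 ± 0.11 SE, adjusted p = 0.0286 by limma). With tubule markers as a covariate limma called 0 of all genes, and Plod2 was at 1.29 with mesangial and endothelial markers set equal. The list's median log2 fold change was -0.13, and with those markers set equal, where 64.1% of all genes rose, 15 of the 21 rose and none fell.
Of 24 other interstitial matrix genes tested, 5 fell and none rose, against 8.58% and 13.5% of all genes tested. Their median was -0.31. With mesangial and endothelial markers set equal, 1 of the 24 fell (Fbln7) and 7 rose, against 64.1% of all genes that rose. The 4 with the smallest adjusted p were Fbln7, Mfap2, Ecm1 and Comp. Fbln7, a fibulin, had 69.5, 91.1 and 85.6 across WT, against 23.0, 33.6 and 36.3 across KO (log2 difference -1.39 ± 0.24 SE, adjusted p = 0.0286 by limma). Mfap2, a microfibril protein, had 94.5, 116 and 103 across WT, against 32.8, 56.3 and 54.4 across KO (log2 difference -1.14 ± 0.25 SE, adjusted p = 0.0294 by limma). Sparc, a collagen-binding glycoprotein, had 22572, 27740 and 26478 across WT, against 27745, 17921 and 32806 across KO and did not pass.
Of 13 collagen and fibronectin receptors tested, 4 fell and 2 rose, again against 8.58% and 13.5% of all genes tested. Their median was -0.15. With mesangial and endothelial markers set equal, none of the 13 fell and 6 rose, again against 64.1% of all genes. The discoidin domain receptors, which bind collagen, differed. In the deposited scaling Ddr2 fell from 299.9 ± 68.2 to 172 ± 4.0 and Ddr1 rose from 1420.1 ± 191 to 2226 ± 53.1 (SD, n = 3; limma adjusted p = 0.0294 and 0.0286). Mrc2, an endocytic receptor that takes up collagen, fell from 2447 ± 210 to 1524 ± 188 and Lrp1 from 2129 ± 332 to 1338 ± 92.4 (SD, n = 3; limma adjusted p = 0.0286 for both), though these were at -0.12, -0.023 and 0.003 for Ddr2, Mrc2 and Lrp1 with the markers set equal. Cd44, the hyaluronan receptor, had 38.0, 23.8 and 61.7 across WT, against 43.4, 21.7 and 256 across KO, high in KO-3 alone.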

How the data were processed

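Glomerular RNA libraries of 3 KO and 3 WT mice were grouped by their titles. The deposited table gives, for 27179 features with NCBI Gene identifiers, a signal for each library that the authors made: normalised counts, that is reads divided by a scaling factor, per the file headers. The submitters' processing notes list bcl2fastq 2.19, cutadapt 1.16.5, HISAT2 2.1, featureCounts 1.6.4, DESeq2 2.11.40.6 and the build mm10, with no role or order. Strand setting and annotation were not given in the sources used here. Dividing the values of a library by their smallest step gave whole reads (100% of values within 0.01). Symbols came from a RefSeq table (25275 identifiers, 93.0%).

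limma 3.58.1 (R 4.3.3) with a variance trend was fitted to log2(normalised count + 1) for 13946 genes with a mean of at least 10, genotype as the only term, two-sided, Benjamini-Hochberg threshold 0.05; this scale understates changes of low genes. The recovered reads were also tested with edgeR 4.0.16 and with DESeq2 1.42.0. Alternatives were other scalings, pseudocounts and filters, no variance trend, a replicate block, a tubule covariate and leaving out each library. The steps were tested on simulated data, and no replicate pair agreed within sampling noise. All 33 members are accounted for: values are given for every gene past the threshold, every gene with no overlap of the groups, Fn1, Col1a1, Col1a2 and Col3a1, and genes with a ratio of at least 2 between KO libraries; up to 4 genes are named per other list, and Parva as the label check. Cd44, C1qa, Tagln, Pi16, Pdgfrb and Sparc, the promoters shown, the chain ratios and the patterns of KO-3 were chosen after their values were seen. The members and lists were chosen with earlier results of these data known. Each read total is a single count of its library, given without an estimate of spread.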

Additional observations from a re-analysis of the deposited data

How the results depend on the processing

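With a pseudocount of 0.5 or 5, no filter, a minimum mean of 50, edgeR, TMM or upper quartile scaling, the count of lower members stayed at 5 and that of higher members at 0. The count of lower members was 0 with the replicate block, 0 without the variance trend, 0 with proximal tubule markers as a covariate and 0 to 7 when a library was left out; in the first 3 of these fits limma called 0, 1 and 0 of all genes, with 4284, 5305 and 356 at an unadjusted p under 0.05. With that covariate Postn, Ltbp4 and Col6a3 were at -1.48, -1.03 and -0.78 and Bgn and Efemp2 at -0.09 and -0.12. With mesangial and endothelial markers set equal, 1 member was lower, 4 were higher and the median was 0.29. DESeq2 called 7 lower and 1 higher, Col5a3. The median over the members was -0.62 to -0.23 when a library was left out.

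The sign turned for some members. With markers set equal, Col1a2 was at 0.39, Col5a2 at 0.40, Col6a1 at 0.23, Col6a2 at 0.12, Col12a1 at 0.47, Thbs1 at 0.29, Bgn at 0.22, Dcn at 0.35, Loxl3 at 0.32, Fbn1 at 0.25, Fbln2 at 0.080, Efemp2 at 0.11, Emilin1 at 0.087 and Mgp at 0.0021. With the tubule covariate, Col1a1 was at -0.081, Col1a2 at 0.16, Col8a1 at -0.27, Col12a1 at 0.25, Dcn at 0.19, Loxl3 at 0.36 and Fbn1 at 0.041. Upper quartile scaling gave -0.042 for Col1a1 and -0.0027 for Col8a1. Dcn was at 0.051 in edgeR and 0.070 in DESeq2. When a library was left out, the ranges were -0.80 to 0.54 for Col1a1, -0.88 to 0.60 for Col3a1, -1.12 to 0.016 for Col6a1, -0.057 to 0.14 for Col8a1, -0.24 to 1.08 for Fn1, -1.04 to 0.081 for Dcn, -0.12 to 1.05 for Loxl1 and -0.043 to 0.58 for Loxl2. The cause was not tested.

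The replicate block joins libraries of the same number, which came from different mice. Deviations from the group means correlated at -0.23, -0.19 and -0.01 for libraries of the same number. For different numbers the correlations were -0.20 to 0.34. These values cannot show whether libraries of the same number shared a batch. Counting error is largest for genes with few reads, such as Col1a1 (15 to 80), where the KO libraries also differed 6.83 times in normalised count.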
